A study of Mus musculus with 12 samples.

Results

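The 10 genes that encode the core and accessory subunits of Polycomb repressive complex 2 (PRC2) were followed in mouse embryonic stem (ES) cells before and after differentiation. They are Ezh2, Ezh1, Eed, Suz12, Rbbp4, Mtf2, Phf1, Phf19, Jarid2 and Aebp2, and they were found in the deposited count table by their symbols. All 10 were among its 23336 genes, and all 10 were among the 12814 genes that passed a filter on low counts and were tested. RNA was sequenced from 12 libraries in 6 groups of 2: differentiated and undifferentiated cells of a wild-type (WT) female line (Pgk12.1), of a female line labelled RlimKO, and of a WT male line (E14). Undifferentiated cells were grown with LIF, the cytokine that holds mouse ES cells in self-renewal. Differentiated cells had spent 3 days as embryoid bodies without LIF and 6 further days in culture at 7.5% oxygen. All libraries carry the strain label C57BL/6. Rlim encodes an X-linked ubiquitin ligase, and the stated purpose of the series was to follow X chromosome inactivation in these lines. Each genotype and sex is 1 line, so sex, genotype and line cannot be told apart, and neither how Rlim was disrupted nor whether the RlimKO line is 1 clone is given in the sources used here.

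PRC2 places methyl groups on lysine 27 of histone H3 (H3K27), the mark of genes held silent by Polycomb. EZH2 and its paralog EZH1 carry the catalytic SET domain, and EED and SUZ12 are required for activity, with RBBP4 as a histone-binding partner. Accessory subunits define exclusive forms: PRC2.1 holds one of the Polycomb-like proteins MTF2, PHF1 or PHF19, which bind CpG-rich DNA, and PRC2.2 holds JARID2 and AEBP2. In ES cells PRC2 marks many developmental regulators, and in female cells it is drawn to the inactive X chromosome after Xist RNA coats it.

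The libraries held 2011919 to 5401940 counts in genes, of which 6.36% to 67.7% fell on Rn45s, a ribosomal RNA precursor, and 1293 to 6403 on the 10 subunits. Levels below are counts per 1e6 (CPM) of scaled library size. Markers of undifferentiated ES cells (7 genes) summed to 59.0 to 209 CPM in differentiated libraries, against 1644 to 1955 CPM in undifferentiated ones. Fibroblast or feeder markers (6 genes) summed to 1922 to 10172 CPM in differentiated libraries and 1.17 to 55.3 CPM in undifferentiated ones. In such mixed bulk cultures, fewer cells of a type and less RNA per cell cannot be told apart. The differentiated male libraries stood apart from each other: their counts differed by a chi-square of 28.5 per degree of freedom outside Rn45s. It was 16.0 in the differentiated RlimKO-labelled pair, 7.66 in the undifferentiated male pair and 2.03 to 2.22 in the remaining pairs. This measure grows with depth, and the differentiated male libraries held 2414981 and 5058147 counts outside Rn45s, so it compares pairs only roughly. Fibroblast markers summed to 7757 CPM in differentiated male replicate 1 and 1922 CPM in replicate 2. Rlim itself had 160 and 150 CPM in undifferentiated RlimKO-labelled libraries, against 267 and 282 CPM in undifferentiated WT female ones (log2 fold change -0.82 ± 0.15 SE, edgeR adjusted p = 0.0437). Differentiated RlimKO-labelled libraries had 290 and 299 CPM of Rlim, against 258 and 266 CPM in differentiated WT female libraries (0.17 ± 0.14, edgeR adjusted p = 0.654). Rlim RNA, counted for the gene as a whole, was thus present in every library labelled RlimKO. Such a count cannot show whether part of the gene or its RNA is missing, and the label is used below only as a name.

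More subunits fell than rose on differentiation in each line. A gene is said to rise or fall when edgeR's quasi-likelihood test gave an adjusted p below 0.05 over all 12814 genes. In WT females 1 subunit rose and 5 fell, where 26.5% of all genes tested rose and 22.2% fell. In RlimKO-labelled females 2 rose and 5 fell, where 26.4% of all genes rose and 21.6% fell. In WT males 1 rose and 8 fell, where 28.7% of all genes rose and 25.4% fell. The median log2 fold change of the 10 subunits was -0.52, -0.48 and -0.98 in WT females, RlimKO-labelled females and males, beside 0.09, 0.10 and 0.05 over all genes. Ezh2, Eed, Mtf2 and Jarid2 fell and Phf1 rose in all 3 lines. The libraries of highest and lowest Rn45s share were differentiated RlimKO-labelled replicate 1 and differentiated male replicate 2. Without this pair, more subunits again fell than rose in each line. Counts of all genes called on differentiation stayed within 1.5 times of those in the model of 12 libraries in every alternative.

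**Figure D1:**
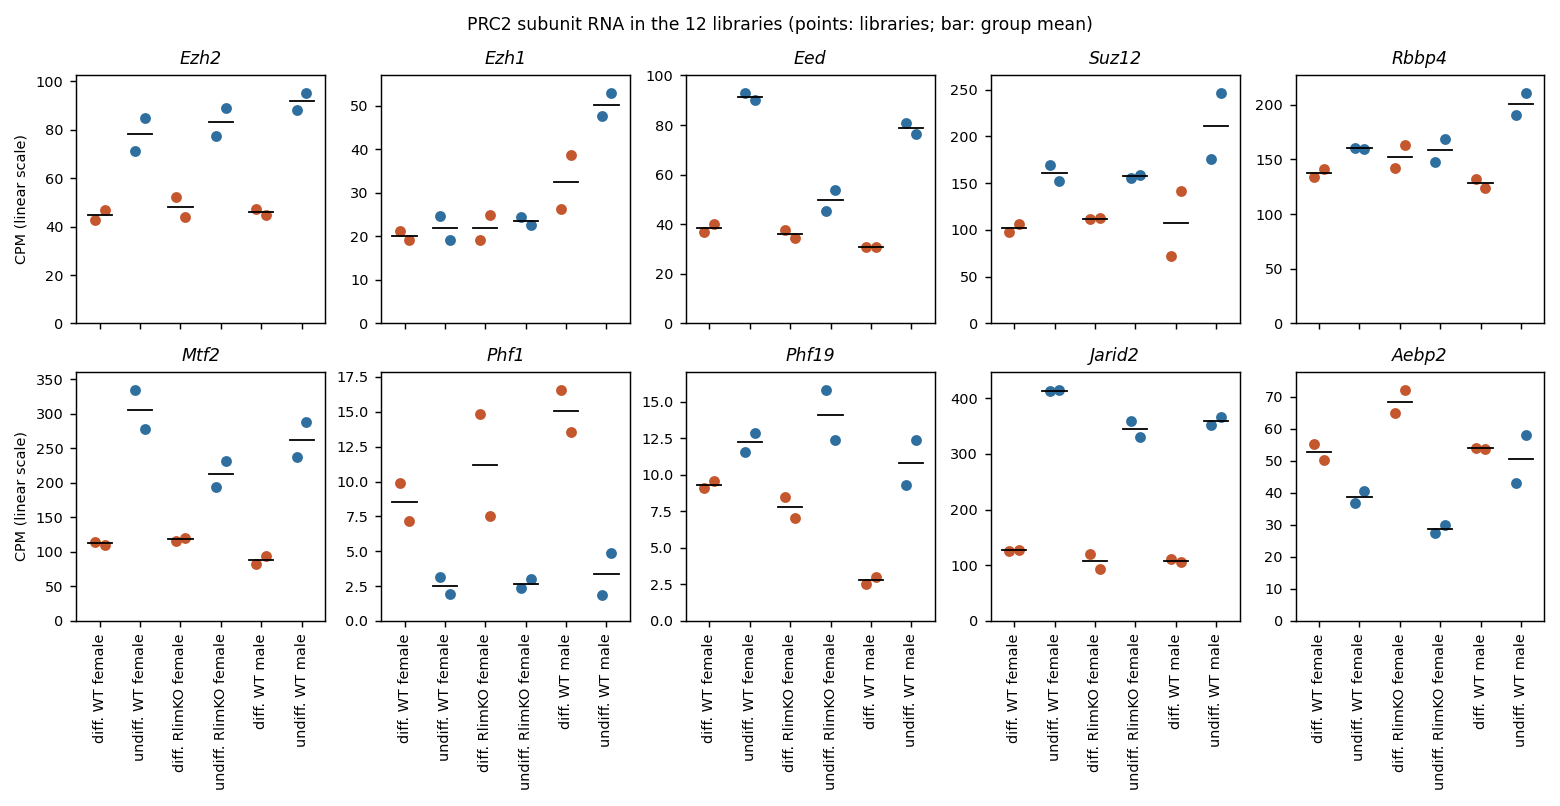
Level of each of the 10 subunits in each of the 12 libraries (vertical axes: CPM on a linear scale from 0, with a scale of its own per gene; points: libraries; bars: group means; orange, differentiated; blue, undifferentiated). Jarid2, Mtf2, Eed and Ezh2 sit lower in the differentiated libraries of all 3 lines, Phf1 sits higher, and Suz12 is spread widely in both male groups.

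**Figure D2:**
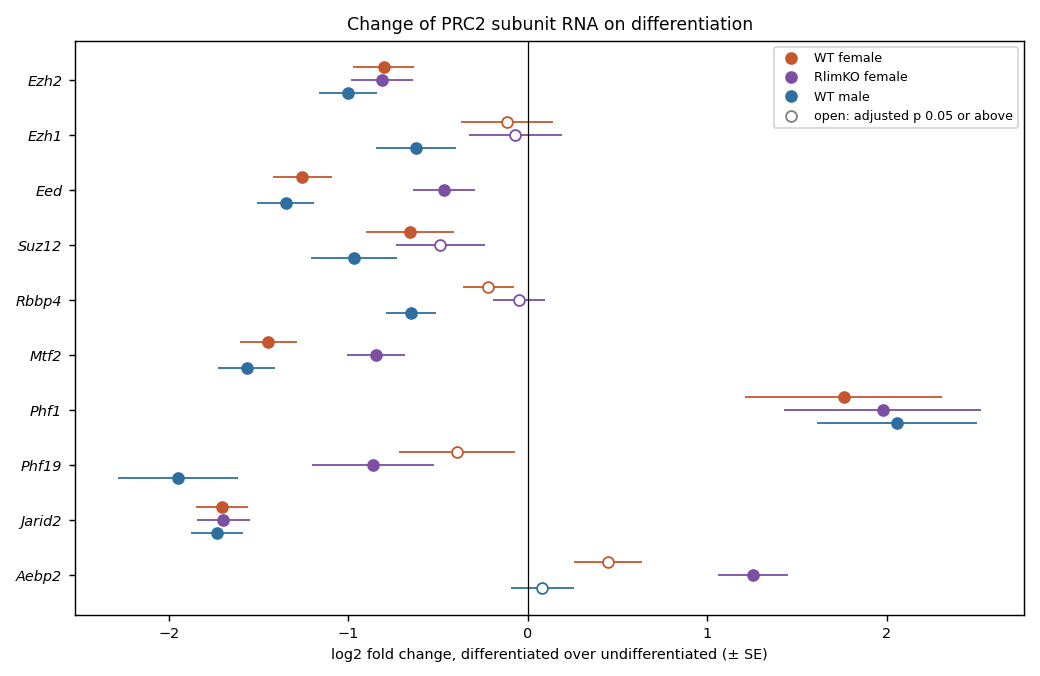
Change of each subunit on differentiation (horizontal axis: log2 fold change, differentiated over undifferentiated; points with bars: estimate ± SE from the model of 12 libraries; filled: adjusted p below 0.05). Jarid2 lies between -1.73 and -1.70 in the 3 lines, whereas Eed, Mtf2 and Phf19 are spread among lines.

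Ezh2 (chr6:47530139-47595341, minus strand, mm10) encodes the main H3K27 methyltransferase of dividing cells. It had 42.8 and 46.9 CPM in differentiated WT female libraries, against 71.4 and 84.8 CPM in undifferentiated ones. In RlimKO-labelled females it had 52.1 and 43.9 CPM after differentiation, against 77.6 and 89.1 CPM before. In males it had 47.3 and 44.8 CPM after differentiation, against 88.4 and 95.2 CPM before. In each line both differentiated libraries lay below both undifferentiated ones. Ezh2 fell by 0.80 ± 0.17 on the log2 scale in WT females (SE, edgeR adjusted p = 0.00124), and by 0.81 ± 0.17 in RlimKO-labelled females (adjusted p = 0.00138). In males the log2 fold change was -0.999 ± 0.162 (edgeR adjusted p = 0.000119). None of the 3 calls was lost when any of the 12 libraries was omitted.

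Ezh1 (chr11:101191115-101226463, minus strand) encodes the paralog of weaker methyltransferase activity, known to be more prominent in resting and differentiated tissues. In WT females it had 21.1 and 19.1 CPM after differentiation, against 24.7 and 19.1 CPM before, and the groups overlapped (log2 fold change -0.12 ± 0.26, edgeR adjusted p = 0.736, 95% interval -0.66 to 0.43). RlimKO-labelled females had 19.1 and 24.9 CPM, against 24.5 and 22.6 CPM, again overlapping (-0.07 ± 0.26, adjusted p = 0.843). In males Ezh1 fell, with 26.2 and 38.6 CPM after differentiation against 47.5 and 52.9 CPM before (-0.62 ± 0.22, adjusted p = 0.0284). That male call was lost without differentiated replicate 1 (-0.33, adjusted p = 0.156), undifferentiated replicate 1 (-0.70, adjusted p = 0.0661) or undifferentiated replicate 2 (-0.54, adjusted p = 0.168), with DESeq2 (adjusted p = 0.0981), and in a model of the 4 male libraries alone (adjusted p = 0.092). Per kilobase of annotated exon, the ratio of Ezh1 to Ezh2 was 0.404 ± 0.055 in differentiated and 0.256 ± 0.077 in undifferentiated WT female libraries (mean ± SD, n = 2 each). The ratio was 0.419 ± 0.127 against 0.256 ± 0.039 in RlimKO-labelled females, and 0.635 ± 0.195 against 0.491 ± 0.011 in males. Both differentiated female libraries lay above both undifferentiated ones in each female line, and the male groups overlapped, since 1 differentiated library had a ratio of 0.497 and 1 undifferentiated library 0.499. The ratio depends on the length used: per kilobase of the longest transcript the ratio ran from 0.189 to 0.468 over the 6 group means.

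EZH2 is a known target of the E2F factors that drive DNA replication genes in human and mouse cells. The promoters of both paralogs are shown because Ezh2 fell in every line and Ezh1 was not called in either female line. They are RefSeq sequences of GRCm38.p6 (the mm10 assembly), from 250 bases before to 50 after the start and 5′ to 3′ on the minus strand, and capitals mark a match to the E2F letters searched, TTTGGCGC or TTTCGCGC on either strand. The Ezh2 window lies at chr6:47594981-47595280 and the Ezh1 window at chr11:101226414-101226713, counted from the RefSeq start. The Ezh1 window reaches 50 bases into the annotated gene, whereas the Ezh2 window lies wholly inside the gene span given above, whose annotated start is farther upstream.
Ezh2: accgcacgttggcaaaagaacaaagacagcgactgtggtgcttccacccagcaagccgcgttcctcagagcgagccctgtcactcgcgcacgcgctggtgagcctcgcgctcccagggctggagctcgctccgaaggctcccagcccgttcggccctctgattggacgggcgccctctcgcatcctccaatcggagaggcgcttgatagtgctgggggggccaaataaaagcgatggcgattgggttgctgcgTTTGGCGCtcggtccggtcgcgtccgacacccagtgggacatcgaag
Ezh1: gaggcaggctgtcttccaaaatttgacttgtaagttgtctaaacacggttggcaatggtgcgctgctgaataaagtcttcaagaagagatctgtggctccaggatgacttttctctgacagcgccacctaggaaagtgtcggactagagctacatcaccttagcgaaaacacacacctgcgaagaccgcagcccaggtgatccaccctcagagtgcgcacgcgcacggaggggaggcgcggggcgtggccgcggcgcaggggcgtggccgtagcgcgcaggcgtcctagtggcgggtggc
Ezh2 held TTTGGCGC on the sense strand, beginning 4 bases after the start. It was the only subunit of the 10 with TTTGGCGC or TTTCGCGC in its RefSeq promoters, and 251 of 27025 genes (0.929%) had either. Other letters that E2F factors may bind were not searched, so the other subunits cannot be said to lack E2F sites. GC content was 64.3% in the Ezh2 window and 59.3% in the Ezh1 window. A match shows that the letters are present and nothing about binding.

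All 18 genes of a list of proliferation and E2F targets were tested, and 18, 15 and 16 of them fell in WT females, RlimKO-labelled females and males, with none rising (medians -1.28, -1.12 and -1.68). Among them were Ccne1, the cyclin of entry into DNA synthesis (-2.64 ± 0.17, -2.90 ± 0.18 and -2.77 ± 0.17), and the replicative helicase gene Mcm5 (-2.04 ± 0.16, -1.48 ± 0.16 and -2.29 ± 0.16). The summed level of the list was 1970 and 2011 CPM in differentiated WT female libraries, against 4455 and 4418 CPM in undifferentiated ones. In RlimKO-labelled females it was 2269 and 2346 CPM against 4240 and 4491 CPM, and in males 1825 and 2193 CPM against 4569 and 4804 CPM. The part of this change in that of Ezh2 was not tested.

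Ezh2 and Ezh1 had different nearest neighbours in pattern. Likeness was measured as the root mean square difference of log2 CPM, centred on the mean of the 12 libraries, over 8055 tested genes outside the lists with at least 10 CPM. The genes nearest to Ezh2 were Drg1 (0.10), Ankrd27 (0.12), Tti1 (0.12), Srpk1 (0.12) and Fam175a (0.12), beside a median of 0.62 over all candidates. Nearest to Ezh1 were Stx3 (0.15), 4933439F18Rik (0.20), Ankrd28 (0.21), Abl2 (0.23) and Cbl (0.23), beside a median of 0.69. Within the complex the closest pairs were Eed with Mtf2 (0.22) and Ezh2 with Suz12 (0.27), and the farthest was Phf1 with Jarid2 (1.82).

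Eed (chr7:89954654-89980983, minus strand) encodes the subunit that reads methylated H3K27 and stimulates the enzyme. In WT females it had 36.7 and 40.0 CPM after differentiation, against 92.9 and 90.1 CPM before, a fall of 1.26 ± 0.16 on the log2 scale (edgeR adjusted p = 1.91e-05). In males it had 30.8 and 30.9 CPM, against 81.0 and 76.5 CPM, a fall of 1.35 ± 0.16 (adjusted p = 6.11e-06). In RlimKO-labelled females it had 37.7 and 34.6 CPM, against 45.5 and 53.7 CPM, a fall of 0.47 ± 0.17 (adjusted p = 0.0366). The 6 differentiated libraries all lay between 30.8 and 40.0 CPM, and the undifferentiated ones were spread between 45.5 CPM in an RlimKO-labelled library and 92.9 CPM in a WT female one. The smaller fall in RlimKO-labelled females was no longer called with DESeq2 (adjusted p = 0.0963) or without any of 5 libraries: differentiated RlimKO-labelled replicate 1 (0.0792) or 2 (0.21), undifferentiated RlimKO-labelled replicate 2 (0.107), differentiated WT female replicate 1 (0.0617) or undifferentiated male replicate 2 (0.0558). A noncoding gene on the other strand, E230029C05Rik, covers 6.82% of the Eed exon bases and had at most 3 counts in any library.

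Suz12 (chr11:79993106-80034123, plus strand) encodes the scaffold on which core and accessory subunits assemble. In WT females it had 97.7 and 106 CPM after differentiation, against 169 and 152 CPM before (-0.66 ± 0.25, edgeR adjusted p = 0.0385). In RlimKO-labelled females it had 112 and 113 CPM, against 156 and 159 CPM, without overlap but not called (-0.49 ± 0.25, adjusted p = 0.119). The male values were discordant within groups, with 72.3 and 142 CPM after differentiation against 176 and 246 CPM before (-0.97 ± 0.24, adjusted p = 0.00332). The WT female call was lost without either differentiated WT female library (adjusted p = 0.176 and 0.0777), either undifferentiated one (0.136 and 0.0666) or either differentiated RlimKO-labelled one (0.0613 and 0.0596). The male call was lost without undifferentiated replicate 2 (-0.70, adjusted p = 0.0664) and in a model of the 4 male libraries alone (adjusted p = 0.057), and without the pair of extreme Rn45s share the male fold change was -1.56. It was -0.52 without differentiated male replicate 1 (adjusted p = 0.00213) and -1.50 without differentiated male replicate 2 (adjusted p = 1.06e-12).

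Rbbp4 (chr4:129307100-129335370, minus strand) encodes a histone chaperone that also serves other chromatin complexes. In WT females it had 134 and 142 CPM after differentiation, against 161 and 160 CPM before (-0.22 ± 0.14, edgeR adjusted p = 0.216, 95% interval -0.53 to 0.09). RlimKO-labelled females had 142 and 163 CPM, against 148 and 169 CPM, overlapping (-0.05 ± 0.14, adjusted p = 0.797). In males it fell, to 132 and 124 CPM after differentiation, against 191 and 211 CPM before (-0.65 ± 0.14, adjusted p = 0.00127), and that call held in all 12 fits without a library. On the opposite strand, Sync lies over 8.94% of the Rbbp4 exon bases and Tmed5 over 6.93% of those of Mtf2, so a small share of their reads is uncertain.

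The 3 Polycomb-like genes of PRC2.1 moved apart. Mtf2 (chr5:108065674-108109004, plus strand), the main Polycomb-like gene of ES cells, had 114 and 111 CPM in differentiated WT female libraries, against 334 and 278 CPM in undifferentiated ones. In RlimKO-labelled females it had 116 and 121 CPM, against 194 and 231 CPM, and in males 82.7 and 94.5 CPM, against 237 and 289 CPM. No differentiated library reached any undifferentiated one. Mtf2 fell by 1.44 ± 0.16 on the log2 scale in WT females (edgeR adjusted p = 4.55e-06), 0.85 ± 0.16 in RlimKO-labelled females (adjusted p = 0.000626) and 1.57 ± 0.16 in males (adjusted p = 1.45e-06). These calls held in every fit that left out a library.

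Phf19 (chr2:34893757-34914026, minus strand), a Polycomb-like gene that recognises H3K36 methylation through its Tudor domain, was low throughout, with 11 to 56 counts per library. In males it had 2.53 and 3.01 CPM after differentiation, against 9.29 and 12.3 CPM before, a fall of 1.95 ± 0.34 (edgeR adjusted p = 0.000205). RlimKO-labelled females had 8.50 and 7.07 CPM, against 15.8 and 12.4 CPM (-0.86 ± 0.34, adjusted p = 0.0484). In WT females the 9.08 and 9.54 CPM after differentiation stood below 11.6 and 12.9 CPM before, without a call (-0.39 ± 0.32, adjusted p = 0.332). The male call held in all 12 fits without a library. The call in RlimKO-labelled females was lost with DESeq2 (adjusted p = 0.143), with no filter (0.0674), with the replicate number as a block (0.0568), and without differentiated RlimKO-labelled replicate 1 (0.0888) or 2 (0.251), undifferentiated RlimKO-labelled replicate 1 (0.145), differentiated WT female replicate 1 (0.0752) or undifferentiated male replicate 2 (0.0635).

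Phf1 (chr17:26933052-26937908, plus strand), a further Polycomb-like gene with a Tudor domain for methylated H3K36, was the only subunit that rose in all 3 lines. Its counts were 50 and 27 in differentiated WT female libraries, against 6 and 4 in undifferentiated ones (9.86 and 7.15 CPM against 3.15 and 1.91 CPM). RlimKO-labelled females had 28 and 31 counts, against 4 and 7 (14.9 and 7.56 CPM against 2.34 and 2.98 CPM), and males 72 and 126 counts, against 5 and 22 (16.5 and 13.5 CPM against 1.86 and 4.85 CPM). In no line did the groups overlap. The log2 fold changes were 1.76 ± 0.55, 1.98 ± 0.55 and 2.06 ± 0.45 in WT females, RlimKO-labelled females and males (edgeR adjusted p = 0.0158, 0.00826 and 0.00138). Phf1 stood above the filter's 2.80 CPM in 6 of 6 differentiated but 3 of 6 undifferentiated libraries, and its few undifferentiated counts limit the precision of the fold change. Its call was lost in WT females without differentiated replicate 1 (adjusted p = 0.0939) or undifferentiated replicate 2 (0.14), and in RlimKO-labelled females without differentiated replicate 1 (0.0709) or undifferentiated replicate 1 (0.0652) or 2 (0.057). The male rise was 2.99 without undifferentiated replicate 2. Cuta, transcribed on the opposite strand, covers 39.3% of the Phf1 exon bases, and since no source used here says that strand was kept, reads of the pair cannot be told apart. Cuta had 10.3 and 8.74 CPM in differentiated and 8.40 and 8.10 CPM in undifferentiated WT female libraries, and it was not called in any of the 3 lines (log2 fold changes 0.21, -0.24 and -0.16).

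Jarid2 (chr13:44729474-44921643, plus strand), the PRC2.2 subunit that helps recruit PRC2 and stimulates it when methylated, had the most even fall across the lines. In WT females it had 126 and 128 CPM after differentiation, against 412 and 414 CPM before. In RlimKO-labelled females it had 120 and 94.1 CPM, against 359 and 330 CPM, and in males 111 and 105 CPM, against 352 and 366 CPM. All 6 differentiated libraries lay between 94.1 and 128 CPM, below all 6 undifferentiated ones, which lay between 330 and 414 CPM. Jarid2 fell by 1.70 ± 0.15 on the log2 scale in WT females (3.25-fold, edgeR adjusted p = 4.17e-07), 1.70 ± 0.15 in RlimKO-labelled females (3.24-fold, adjusted p = 5.08e-07) and 1.73 ± 0.14 in males (3.33-fold, adjusted p = 2.11e-07). Each call held in all 12 fits without a library.

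Aebp2 (chr6:140622663-140678472, plus strand), the zinc-finger partner of JARID2 in PRC2.2, did not fall with it in any line. In RlimKO-labelled females Aebp2 rose, with 64.8 and 71.9 CPM after differentiation against 27.4 and 29.8 CPM before (1.26 ± 0.20, edgeR adjusted p = 0.00011), and this held in all 12 fits without a library. WT females had 55.2 and 50.1 CPM, against 36.8 and 40.5 CPM, without overlap and without a call (0.45 ± 0.19, adjusted p = 0.0618). It was called there without differentiated male replicate 1 (adjusted p = 0.0221) or 2 (0.0255). Males had 54.0 and 53.7 CPM, against 43.1 and 58.0 CPM, overlapping (0.08 ± 0.17, adjusted p = 0.715, 95% interval -0.29 to 0.45).

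Per kilobase of exon, the order of the subunits changed between the states. Mtf2 had the highest level in all 3 undifferentiated groups, at 53.7, 37.3 and 46.1 CPM per kb in WT females, RlimKO-labelled females and males. Its libraries overlapped those of the next gene, Jarid2 or Suz12, in the RlimKO-labelled and male groups. Suz12 was highest in the 3 differentiated groups, at 20.6, 22.7 and 21.7 CPM per kb, and it overlapped Mtf2 in WT females and males. With the longest transcript as the length Rbbp4, not Suz12, came first in the differentiated groups. Phf1 was last in the undifferentiated groups (0.725 to 0.962 CPM per kb) and Phf19 was last in the differentiated ones (0.549 to 1.85 CPM per kb).

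Within the RNA of the 5 accessory subunits, counted per kilobase of exon, Jarid2 took a smaller share and Aebp2 and Phf1 a larger one after differentiation. Jarid2 made up 30.8 ± 1.2% of accessory RNA in differentiated and 41.2 ± 2.7% in undifferentiated WT female libraries (mean ± SD, n = 2 each). It made up 25.3 ± 2.9% against 44.8 ± 4.0% in RlimKO-labelled females and 30.1 ± 1.5% against 40.6 ± 3.2% in males. The Aebp2 share was 12.6 ± 0.5% against 3.81 ± 0.50% in WT females, 16.0 ± 2.1% against 3.67 ± 0.11% in RlimKO-labelled females and 14.8 ± 0.3% against 5.59 ± 0.59% in males. For both genes the differentiated libraries of each line lay apart from the undifferentiated ones. The Phf1 share was 5.74 ± 1.13% against 0.696 ± 0.200%, 7.32 ± 3.00% against 0.961 ± 0.137% and 11.7 ± 1.8% against 1.02 ± 0.56% in the same 3 lines. The 3 Polycomb-like genes together held 56.6 ± 0.6% against 55.0 ± 3.2% in WT females, 58.7 ± 0.8% against 51.5 ± 3.9% in RlimKO-labelled females and 55.1 ± 1.7% against 53.8 ± 2.6% in males. These summed shares overlapped between states in WT females and males and did not in RlimKO-labelled females. Per kilobase of the longest transcript the summed Polycomb-like share was 57.7% against 58.6% in WT females, 58.8% against 55.2% in RlimKO-labelled females and 55.4% against 57.0% in males, so its direction in WT females and males depends on the length used. A larger share need not mean more RNA of a gene, since it also grows where other accessory genes fall. In males the Aebp2 level itself was not called (log2 fold change 0.08 ± 0.17, edgeR adjusted p = 0.715). The shares are of RNA, not of protein or of complexes.

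**Figure D3:**
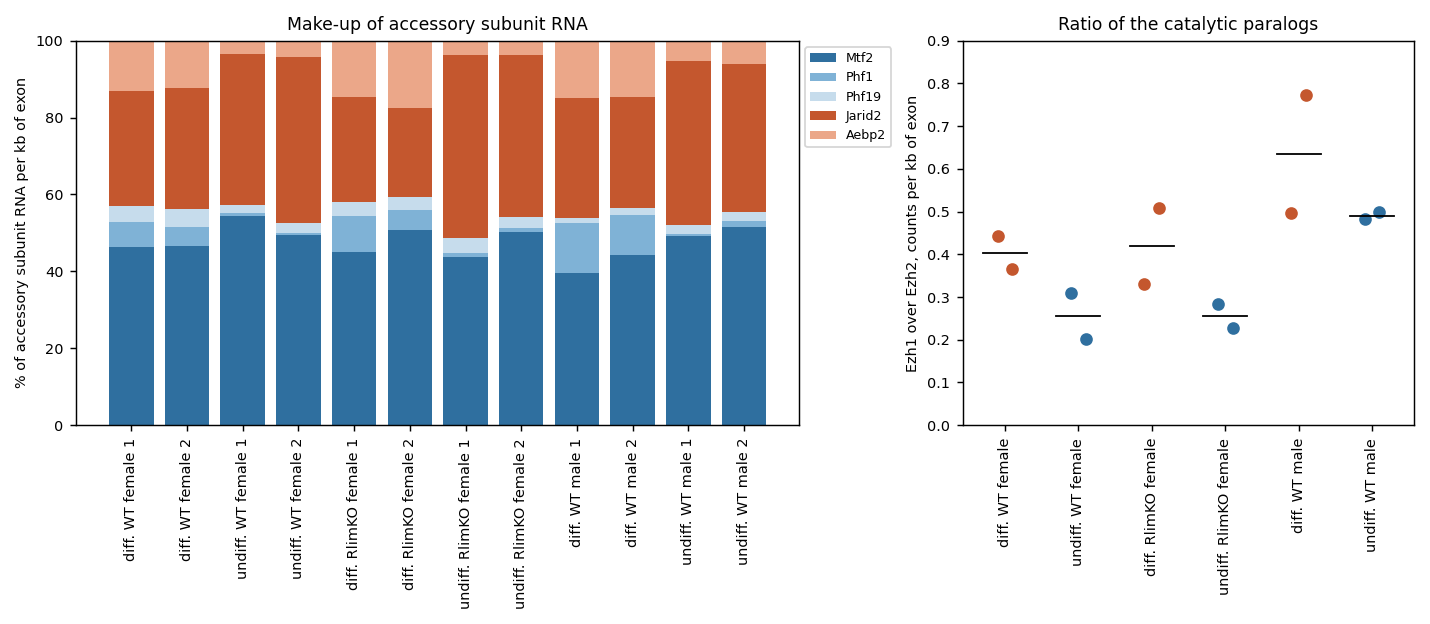
Left, share of each accessory gene in the summed accessory RNA of each library (vertical axis: % of counts per kb of exon; blue, Polycomb-like genes of PRC2.1; orange, Jarid2 and Aebp2 of PRC2.2). Right, ratio of Ezh1 to Ezh2 per kb of exon (points: libraries; bars: group means). The light orange Aebp2 band is 12.2% to 17.5% of the bar in differentiated libraries and 3.46% to 6.00% in undifferentiated ones.

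Of 5 other PRC2-associated genes, none rose and 2 fell in WT females, 2 rose and 2 fell in RlimKO-labelled females, and 1 rose and 1 fell in males (medians -0.04, 0.35 and 0.29). Epop (listed as E130012A19Rik), which links PRC2.1 to elongin in ES cells, fell in all 3 lines, with 12.2 and 12.5 CPM in differentiated against 71.9 and 75.3 CPM in undifferentiated WT female libraries (-2.57 ± 0.24, edgeR adjusted p = 8.58e-07). Its log2 fold change was -3.73 ± 0.31 in RlimKO-labelled females and -2.04 ± 0.24 in males. Ezhip (listed as AU022751), an X-linked inhibitor of PRC2, had 0.986 and 0.530 CPM in differentiated against 7.88 and 9.06 CPM in undifferentiated WT female libraries (-3.38 ± 0.74, adjusted p = 0.0017), and it also fell in RlimKO-labelled females (-3.56 ± 0.88, adjusted p = 0.00387). Rbbp7, the X-linked paralog of Rbbp4, rose in males, with 254 and 383 CPM against 142 and 152 CPM (1.12 ± 0.18, adjusted p = 0.000103). Rbbp7 also rose in RlimKO-labelled females, with 289 and 319 CPM against 201 and 242 CPM (0.46 ± 0.18, adjusted p = 0.0475). In WT females it was 245 and 243 CPM against 250 and 251 CPM, without a call (-0.04 ± 0.18, adjusted p = 0.878).

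Genes that remove or compete with H3K27 methylation were counted in a list of 5, of which 1 rose and 1 fell in WT females, 3 rose and none fell in RlimKO-labelled females, and 3 rose and none fell in males (medians 0.19, 0.41 and 0.52, with Uty at its fitted 0 in females). Kdm6b, an H3K27 demethylase, rose in all 3 lines. It had 70.6 and 53.5 CPM in differentiated against 20.5 and 18.6 CPM in undifferentiated WT female libraries (1.67 ± 0.27, edgeR adjusted p = 0.000167), with log2 fold changes of 1.59 ± 0.27 in RlimKO-labelled females and 1.86 ± 0.24 in males. The X-linked demethylase Kdm6a fell in WT females, with 74.4 and 82.9 CPM against 138 and 124 CPM (-0.74 ± 0.17, adjusted p = 0.00209). The acetyltransferase gene Crebbp rose in RlimKO-labelled females (0.64 ± 0.18, adjusted p = 0.00972) and males (0.79 ± 0.18, adjusted p = 0.0016).

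Methyltransferases of other histone residues showed both directions. Of 10 tested genes for trithorax-type H3K4 methyltransferases, 3 rose and 4 fell in WT females, 2 rose and 4 fell in RlimKO-labelled females, and 2 rose and 5 fell in males (medians -0.11, 0.07 and -0.31). Wdr5, Ash2l and Dpy30, which encode shared core subunits, fell in all 3 lines. Dpy30 had log2 fold changes of -1.87 ± 0.26, -1.98 ± 0.27 and -2.38 ± 0.25, and Ash2l of -1.10 ± 0.14, -0.95 ± 0.14 and -1.80 ± 0.14. Of 5 H3K36 methyltransferase genes, 2 rose in WT females with none falling, 3 rose in RlimKO-labelled females with none falling, and 3 rose and 1 fell in males (medians 0.40, 1.10 and 0.74). Ash1l, which encodes one that opposes Polycomb silencing, had log2 fold changes of 1.48 ± 0.18, 1.74 ± 0.18 and 1.34 ± 0.17 in the same order of lines, all called.

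Developmental regulators known as PRC2 targets in ES cells moved in both directions among those that could be tested. Of 39 listed, 22 were tested, 17 were too low to test and 4 of those were at 0 in all 12 libraries. Of the 22, 15 rose and 2 fell in WT females, 17 rose and 3 fell in RlimKO-labelled females, and 18 rose and 2 fell in males. Because a gene silent in ES cells passes the filter only through its differentiated libraries, no support is drawn from these counts. The fitted medians of 6.09, 4.83 and 5.66 became 2.75, 2.96 and 3.35 when genes at 0 in a group were set to their bound (3 counts over the group). Hand1, a factor of heart and trophoblast, had 31.4 and 35.5 CPM in differentiated WT female libraries, against 0 counts in both undifferentiated ones. Tbx20, a heart factor, had 181 and 187 CPM, against 0.525 and 0.953 CPM, in WT females. It had 286 and 303 CPM, against 1.17 and 3.41 CPM, in RlimKO-labelled females. Gata4, a factor of heart and endoderm, had 56.3 and 89.9 CPM in differentiated against 0.743 and 1.54 CPM in undifferentiated male libraries. Pax6, a regulator of eye and neural development, fell in all 3 lines and was picked out after its values were seen. In WT females Pax6 had 0 and 0.265 CPM after differentiation, against 7.35 and 8.10 CPM before. Primitive and visceral endoderm markers, which include Gata4, summed to 244 to 538 CPM in differentiated and 0.584 to 4.85 CPM in undifferentiated libraries, and their part in these levels was not tested.

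**Figure D4:**
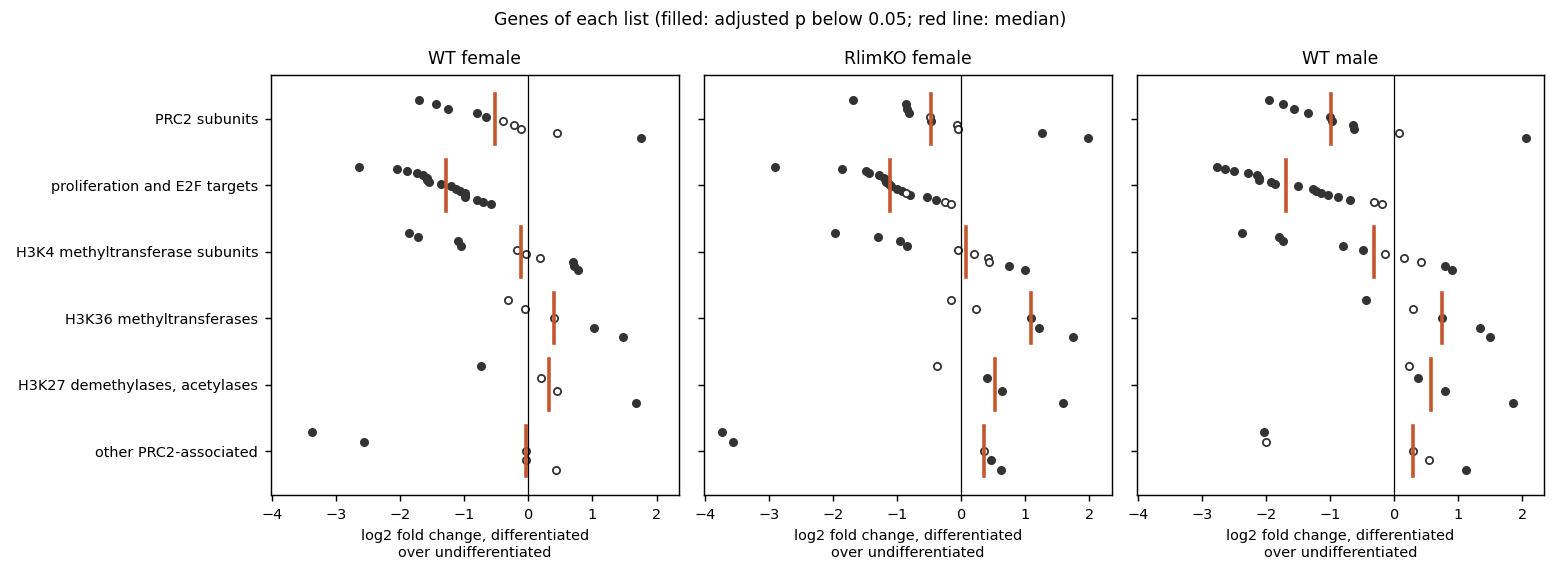
Change on differentiation of the 10 subunits and of the other lists, 1 panel per line (horizontal axis: log2 fold change, differentiated over undifferentiated; points: genes tested, filled where adjusted p is below 0.05; red bars: medians). The proliferation genes lie lowest, with medians of -1.28, -1.12 and -1.68, and the subunits lie between them and the other lists. PRC2 target regulators and Uty, which has no counts in female libraries, are not drawn.

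Between lines, few subunits differed in the undifferentiated state. In RlimKO-labelled against WT females, 1 of 10 was called, against 0.242% of all genes: Eed, with 45.5 and 53.7 CPM in RlimKO-labelled libraries against 92.9 and 90.1 CPM in WT female ones (-0.88 ± 0.17, 1.84-fold lower, edgeR adjusted p = 0.0465). The 2 groups did not overlap. That call stood in only 2 of the 12 fits that left out a library, those without differentiated male replicate 1 or 2. In the other 10 fits the adjusted p was 0.0962 to 0.389, for fold changes of -0.97 to -0.76, and it was 0.0565 with the replicate number as a block. Mtf2 was also lower there, at 194 and 231 CPM against 334 and 278 CPM, without a call (-0.52 ± 0.16, adjusted p = 0.232), and it was called without differentiated male replicate 1 (adjusted p = 0.0116) or 2 (0.00913).

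Against males, the undifferentiated female lines had less Ezh1. WT females had 24.7 and 19.1 CPM of Ezh1, against 47.5 and 52.9 CPM in males (-1.21 ± 0.25, edgeR adjusted p = 0.0111), the only call among the 10, where 6.63% of all genes were called. RlimKO-labelled females had 24.5 and 22.6 CPM against the same males (-1.10 ± 0.25, adjusted p = 0.0125). The calls were lost without any of the 4 libraries compared, at adjusted p = 0.066 to 0.15 for WT females and 0.0787 to 0.173 for RlimKO-labelled females. In RlimKO-labelled females against males, 3 of 10 were called and all were lower, where 10% of all genes were called. The other 2 were Eed, with 45.5 and 53.7 CPM against 81.0 and 76.5 CPM (-0.66 ± 0.16, adjusted p = 0.0211), and Aebp2, with 27.4 and 29.8 CPM against 43.1 and 58.0 CPM (-0.83 ± 0.20, adjusted p = 0.0165). Eed was not called with no filter (adjusted p = 0.0801), with DESeq2 (0.0896), or in 7 of the 12 fits without a library, and Aebp2 was not called in 4 of the 12. The 2 female lines are set against the same 2 male libraries here. Counts of called subunits between these lines moved when libraries were left out, as counts over all genes did. No result about the subunits is read from them.

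After differentiation the female lines had more Phf19 than males. WT females had 9.08 and 9.54 CPM, against 2.53 and 3.01 CPM in males (1.71 ± 0.33, edgeR adjusted p = 0.00645). RlimKO-labelled females had 8.50 and 7.07 CPM (1.44 ± 0.35, adjusted p = 0.0186). Phf19 was the single call among the 10 in each comparison, where 8.97% of all genes were called for WT females and 11.6% for RlimKO-labelled females. In RlimKO-labelled against WT females none of the 10 was called by edgeR, where 2.59% of all genes were called. There 1 had an unadjusted p below 0.05 (Aebp2, 64.8 and 71.9 CPM against 55.2 and 50.1 CPM, 0.38 ± 0.18, adjusted p = 0.339) and 0 of 10 were called by DESeq2. Aebp2 was called in an edgeR model of only the 4 libraries compared (adjusted p = 0.0379). Of the 10 folds in that comparison the lowest was -0.28 and the highest 0.38, and the interval for Ezh2 was -0.28 to 0.45 (95%, log2 scale). Phf19 was not called without differentiated WT female replicate 1 (adjusted p = 0.0558) or 2 (0.0651) in the WT female comparison. It was not called without differentiated RlimKO-labelled replicate 1 (0.106) or 2 (0.112), without the pair of extreme Rn45s share (0.0669), nor with DESeq2 (0.0562), in the RlimKO-labelled one. In models of only the 4 libraries compared, neither was called (0.159 and 0.171). Counts of called subunits against males moved when libraries were left out, as counts over all genes did, and no result is read from them.

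**Figure D5:**
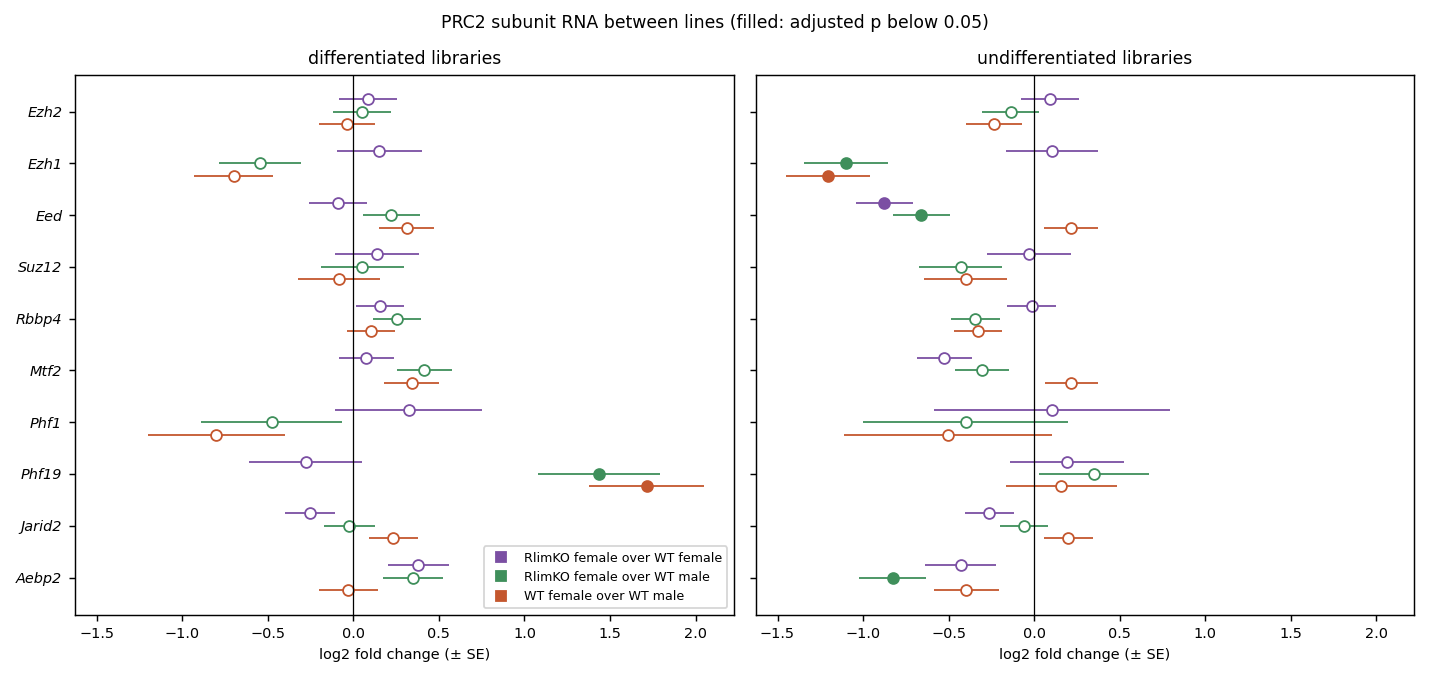
Differences in subunit RNA between lines, differentiated libraries at left and undifferentiated at right (horizontal axis: log2 fold change of the first line named over the second; points with bars: estimate ± SE; filled: adjusted p below 0.05). Phf19 is the filled gene at left, above 1.4 in both comparisons with males, and Ezh1, Eed and Aebp2 are filled at right, all below 0.

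The change on differentiation itself was compared between lines. Between RlimKO-labelled and WT females none of the 10 differed by edgeR and none by DESeq2, where 0.203% of all genes did. There 3 had an unadjusted p below 0.05: Eed (difference in log2 fold change 0.79 ± 0.24, adjusted p = 0.245), Aebp2 (0.81 ± 0.27, adjusted p = 0.317) and Mtf2 (0.60 ± 0.23, adjusted p = 0.374). Between WT females and males none of the 10 differed, where 1.39% of all genes did, with 2 at an unadjusted p below 0.05 (Phf19, 1.55 ± 0.46, adjusted p = 0.114, and Rbbp4, 0.43 ± 0.20, adjusted p = 0.324) and none by DESeq2. Between RlimKO-labelled females and males 1 of 10 differed, where 2.61% of all genes did. This was Aebp2, which rose by 1.26 in RlimKO-labelled females against 0.08 in males, a difference of 1.18 ± 0.26 (adjusted p = 0.0317). It was called in 2 of the 12 fits without a library, those without differentiated male replicate 1 or 2, and in the other 10 the adjusted p was 0.0594 to 0.188. With scaling factors from autosomal genes the difference was 1.04 (adjusted p = 0.0526), and a model of the 8 libraries compared did not call it (adjusted p = 0.123). In that comparison 5 of 10 had an unadjusted p below 0.05, among them Eed (0.88 ± 0.23, adjusted p = 0.0616) and Mtf2 (0.72 ± 0.22, adjusted p = 0.11). For Jarid2 the differences between lines were 0.01, 0.03 and 0.04 in the 3 comparisons, with 95% intervals reaching from -0.43 to 0.47 at their widest limits.

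Genes outside the complex also differed between lines. Epop was lower in differentiated RlimKO-labelled libraries, at 4.25 and 2.93 CPM, against 12.2 and 12.5 CPM in differentiated WT female ones (-1.85 ± 0.32, edgeR adjusted p = 0.0068). In the same differentiated libraries the ES cell markers summed to 105 and 99.5 CPM in RlimKO-labelled against 208 and 209 CPM in WT females, the trophoblast markers (4 genes) to 124 and 126 against 45.2 and 45.0 CPM, and the cardiac and mesoderm markers (5 genes) to 9.03 and 10.97 against 61.0 and 48.8 CPM. Their part in the Epop difference was not tested. Kdm6a was higher in undifferentiated WT females, at 138 and 124 CPM, against 58.3 and 67.0 CPM in males (1.06 ± 0.17, adjusted p = 0.00266). Its Y-linked counterpart Uty had 20.4 and 23.7 CPM in differentiated and 16.7 and 14.3 CPM in undifferentiated male libraries and 0 counts in all 8 female libraries. Kdm6b was lower in both differentiated female lines than in males, with log2 fold changes of -1.24 ± 0.23 (adjusted p = 0.00446) for WT and -1.07 ± 0.23 (adjusted p = 0.00934) for RlimKO-labelled females.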

How the data were processed

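RNA-seq was read from 12 libraries in 6 groups of 2. Per the labels' protocols, cDNA was made by template switching, amplified by PCR and tagged by Nextera transposition. The authors deposited raw counts per gene. Build mm10 is listed per the submitters' processing notes, which also name TopHat2 2.0.12, edgeR 3.10.0, HTSeq 0.6.1p1 and bcl2fastq 2.16.0.10. Their settings, the strand mode and the annotation are not given in the sources used here. The 5 HTSeq summary lines stayed out of library sizes, and 45.4% to 53.3% of the counts plus summary lines were without a feature and 0.241% to 0.926% were ambiguous. Counts were fitted in 1 quasi-likelihood model of 6 group means (edgeR 4.0.16 in R 4.3.3, TMM scaling, default expression filter, 12814 genes), with Benjamini-Hochberg adjustment over all genes tested in each of 12 comparisons and a threshold of 0.05. The model's steps were tested on simulated counts. Values are CPM of the TMM-scaled library size, errors are SE for fold changes and SD for levels (n = 2), and intervals are 95%. Each edgeR SE was derived from the test, as the absolute log2 fold change over the square root of the F statistic. The intervals were built from that SE, so neither is separate from the p-value. Lengths, positions and overlaps came from an annotation of the same build, in which 22871 of 23336 symbols (98%) were matched. The alternatives were other scaling factors, filters, a replicate block, DESeq2 1.42.0, models of the compared libraries alone and leaving out libraries. Leaving out the libraries of extreme Rn45s share, or both differentiated male libraries, was chosen after seeing the data.

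Separate cultures are not stated for the replicates. The p-values therefore reflect the spread of these libraries alone, and that spread may be technical. With 2 libraries against 2 the smallest exact permutation p is 0.33, so no such test was used. The subunits, gene lists and markers were chosen with earlier results of these data known, and list counts support no inference about a list. All 10 subunits are described. From each list, genes were named from the up to 4 of smallest p in a comparison whose groups did not overlap, and the likeness measure named the 5 nearest genes to Ezh2 and to Ezh1. The promoters shown were limited to Ezh2 and Ezh1. The differentiated male replicate 2 has a library name outside the numbered series of the other 11.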

Additional observations from a re-analysis of the deposited data

Results flagged for a closer look

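The change of Aebp2 on differentiation differed between RlimKO-labelled females and WT males in a test of the difference itself. Aebp2 had 64.8 and 71.9 CPM in differentiated against 27.4 and 29.8 CPM in undifferentiated RlimKO-labelled libraries, and 54.0 and 53.7 CPM against 43.1 and 58.0 CPM in male ones. The difference in log2 fold change was 1.18 (95% interval 0.62 to 1.74, edgeR adjusted p = 0.0317), and 10 of 12 fits without a library did not call it, as the text above gives. The undifferentiated male replicates differed from each other by more than the undifferentiated RlimKO-labelled ones.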

How the results depend on the processing

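No subunit fold change changed sign under any alternative where it had been called, and of the alternative values of called folds 564 stayed past the threshold and 84 did not. Counts of called subunits on differentiation stayed within 1.5 times under the scaling factors, filters, block, own-library models and DESeq2. When single libraries were left out they ran from 4 to 7 in WT females, 4 to 8 in RlimKO-labelled females and 7 to 9 in males. Between undifferentiated lines they ran from 0 to 2 (RlimKO-labelled against WT female), 0 to 1 (WT female against male) and 0 to 4 (RlimKO-labelled against male). Between differentiated lines they ran from 0 to 0, 0 to 3 and 0 to 3, and for differences in the change from 0 to 0, 0 to 1 and 0 to 4, in the same order. Scaling factors from autosomal genes gave 0 for the change of RlimKO-labelled females against males. Undifferentiated RlimKO-labelled females against males gave 2 with no filter and 2 with DESeq2, which gave 0 for the differentiated pair. A model of only the libraries compared gave 2 for undifferentiated RlimKO-labelled against WT females and 1 for differentiated ones, 0 for each differentiated female line against males and 0 for the change of RlimKO-labelled females against males. Without the libraries of extreme Rn45s share the counts were 2, 2 and 5 between undifferentiated lines, 3 and 2 for differentiated WT and RlimKO-labelled females against males, and 1 and 5 for their changes against males. Without both differentiated male libraries undifferentiated RlimKO-labelled against WT females gave 2. In each case the cause was not tested.

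Deviations of same-numbered replicates correlated at -0.066 to 0.103 over 15 pairs of groups. Genes of few counts add noise to these correlations, so they cannot show whether the replicate numbers pair the libraries. The replicate block left 0 calls among the subunits for undifferentiated RlimKO-labelled against WT females, and 6 for differentiation of the RlimKO-labelled line. Over all genes, counts on differentiation moved by less than 1.5 times. Elsewhere they ran, over all alternatives, from 0 to 413 around 31, 167 to 2282 around 849 and 310 to 2817 around 1282 between undifferentiated lines, from 12 to 2154 around 332, 5 to 4391 around 1149 and 10 to 4530 around 1489 between differentiated lines, and from 2 to 530 around 26, 13 to 1886 around 178 and 39 to 2016 around 334 for the changes. Autosomal factors moved the split of higher and lower genes to 819 and 507, beside 589 and 693, in undifferentiated RlimKO-labelled females against males, to 505 and 319, beside 400 and 449, in undifferentiated WT females against males, and to 117 and 198, beside 194 and 140, for the change of RlimKO-labelled females against males. Depth limits Phf1 and Phf19 most, with 4 to 126 and 11 to 56 counts per library.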
